A study of Homo sapiens with 179 samples.

Results

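The 10 genes described here encode proteins of the contractile apparatus and surface of smooth muscle and stromal cells: TAGLN, ACTA2, CNN1, MYL9, TPM1, TPM2, CALD1, VIM, PDGFRB and THY1. They were chosen by symbol, with earlier results of these data known. All 10 were found among the 19084 genes of the deposited tables. Expression was measured by RNA-seq in H1, a human embryonic stem cell line in wide use, cultured on Matrigel in E8, a defined medium. Every library came from this line with no further treatment. TruSeq, a commercial mRNA library kit, was used for H1p16 and for H1p43 (3 replicates per group, 12 samples per sequencing lane). LM-Seq, in which poly(A) RNA is captured on oligo-dT beads, fragmented and reverse-transcribed from random hexamers, was used for all other libraries. Lanes 1, 2, 3 and 4 carried 95, 48, 24 and 6 of these samples. The labels explain neither p16 and p43 nor which H1 cells the LM-Seq libraries were made from.

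Smooth muscle contracts when myosin pulls on actin filaments. ACTA2 is the alpha actin of smooth muscle, tropomyosins wind along the filament, and caldesmon, calponin and transgelin bind it. Serum response factor (SRF) acts with cofactors of the myocardin family, some of which answer to the pool of free actin. Many genes of this set are transcribed through SRF and these cofactors, and through TGF-beta signalling. Several are also expressed outside muscle: non-muscle cells use tropomyosins, caldesmon and myosin light chains in stress fibres, vimentin is an intermediate filament of many cell types, and THY1 (CD90) is a surface protein that marks stromal cells as well as human pluripotent stem cells.

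SRF binds the CArG box, in which a pair of C and a pair of G enclose an A/T-rich core. Promoter windows from RefSeq (GRCh38.p14) were available for 7 of the 10 genes, and the 250 bases before each start were searched on both strands. TAGLN, MYL9 and THY1 had no window and were not searched. No window of the 7 genes searched held an exact CArG box, which 1.16% of all 35116 windows held. A box with 1 C or G inside the core, a looser pattern chosen after the exact one had been searched, occurred in 5.96% of all windows. It occurred at 2 places in 1 of the 2 ACTA2 windows (chr10:88952774-88953023, minus strand), with the nearer box beginning 71 bases before the start, and in 1 of the 4 CALD1 windows (chr7:134711249-134711498, plus strand), beginning 26 bases before the start. These windows are shown because they hold the boxes, in capitals. The window of TPM1 (chr15:63048239-63048488, plus strand) held no box and is shown beside them. TPM1 varied together with CALD1 in the libraries described below. TPM2 did so more closely, and neither of its 2 windows, which are not shown, held a box. A link between these windows and that covariation was not tested. None of the boxes overlapped the SMAD-binding letters CAGAC or the E-box CANNTG, which occurred in 38% and 61.82% of all windows. The deposited tables carry no binding data, so these matches describe the letters alone.
ACTA2: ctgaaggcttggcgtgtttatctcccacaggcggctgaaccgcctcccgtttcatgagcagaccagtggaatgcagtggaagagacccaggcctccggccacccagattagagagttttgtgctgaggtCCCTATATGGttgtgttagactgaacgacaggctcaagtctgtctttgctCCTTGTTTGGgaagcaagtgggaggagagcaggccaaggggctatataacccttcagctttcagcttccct
CALD1: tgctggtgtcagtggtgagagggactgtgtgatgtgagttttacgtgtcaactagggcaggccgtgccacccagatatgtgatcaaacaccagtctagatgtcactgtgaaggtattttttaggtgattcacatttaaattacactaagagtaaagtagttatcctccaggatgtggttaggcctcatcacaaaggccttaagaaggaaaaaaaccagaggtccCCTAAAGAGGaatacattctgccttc
TPM1: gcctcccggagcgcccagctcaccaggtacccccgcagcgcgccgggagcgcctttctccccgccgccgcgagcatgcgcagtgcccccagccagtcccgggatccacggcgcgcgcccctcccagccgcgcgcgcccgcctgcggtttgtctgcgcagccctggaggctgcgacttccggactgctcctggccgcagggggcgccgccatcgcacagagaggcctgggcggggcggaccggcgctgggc

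The total of expected counts, rounded to a whole number, ran from 23680503 to 30628645 for H1p16 and from 29018106 to 35852646 for H1p43. For LM-Seq it ran from 1040671 to 1539277 (Lane 1), from 2005736 to 2739084 (Lane 2), from 4028607 to 4918577 (Lane 3) and from 15780078 to 16583048 (Lane 4). Some defining fibroblast markers were at 0: LUM, DCN and FAP, a pair of matrix proteoglycans and a fibroblast protease, were listed so in every library. Other genes of the same list were expressed in H1p16, led by SPARC, a matricellular protein (211 TPM), and the collagens COL6A1 and COL1A1 (64.4 and 44.9 TPM). MYH11, the smooth muscle myosin heavy chain, averaged 0.70 ± 0.13 TPM in H1p16 and 0.83 ± 0.08 in H1p43 (SD, n = 3 each). The pluripotency markers summed to 9048 ± 104.8 TPM in H1p16 and 7338 ± 13.7 in H1p43 (SD, n = 3 each). The label of smooth muscle and stroma is used here for what these genes are known for, and the cells are H1 by their labels.

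TPM, which scales counts by transcript length and library total, allows levels to be compared between genes. In H1p16 the order from the highest mean was THY1, TPM1, TPM2, TAGLN, MYL9, CALD1, VIM, CNN1, PDGFRB and ACTA2. Neighbours in this order did not overlap, except CALD1 and VIM, at 124.6 ± 1.87 and 122.9 ± 2.47 TPM (SD, n = 3). In H1p43 TPM1 stood above THY1 and MYL9 above TAGLN, which came before TPM2, and no neighbours overlapped. All 4 LM-Seq lanes shared another order: TPM1, TPM2, THY1, CALD1, TAGLN, VIM, MYL9, CNN1, PDGFRB and ACTA2. There the leading pair overlapped in Lanes 1 to 3. TPM1 exceeded TPM2 in 79 of 95 libraries of Lane 1, 44 of 48 of Lane 2, 21 of 24 of Lane 3 and 6 of 6 of Lane 4. VIM overlapped TAGLN in all 4 lanes, and THY1 overlapped CALD1, and VIM MYL9, in Lanes 1 to 3. TPM2 stood apart from THY1, and MYL9 from CNN1, in every lane.

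**Figure D1:**
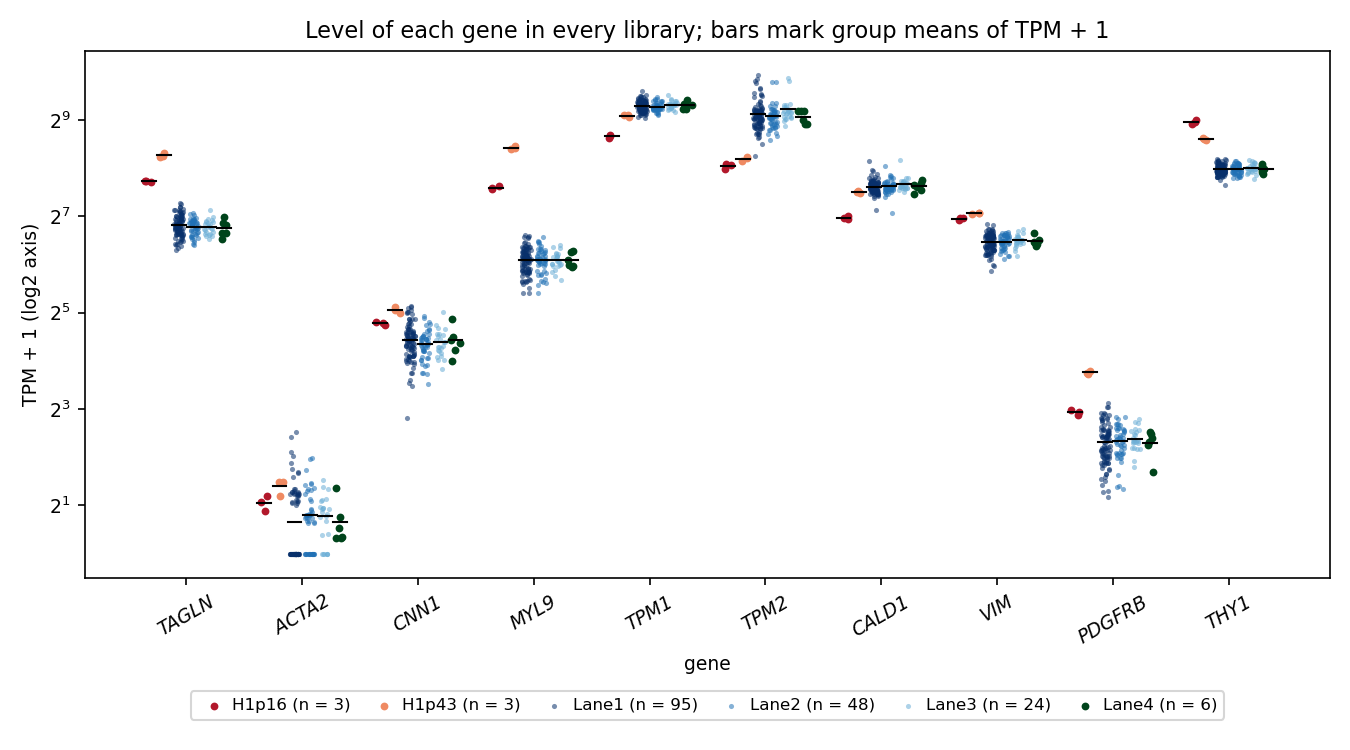
TPM + 1 on a log2 axis for each of the 10 genes in every library, with 1 point per library, 1 colour per group and bars at group means. ACTA2 has the lowest mean in every group, and MYL9 and TAGLN are lower in the 4 LM-Seq lanes than in H1p16 and H1p43, while TPM1 and TPM2 are higher.

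The first comparison, H1p43 with H1p16, stayed within the TruSeq protocol. In H1p43 7 of the 10 genes were higher (TAGLN, ACTA2, CNN1, MYL9, TPM1, CALD1 and PDGFRB), THY1 was lower, and TPM2 and VIM did not pass edgeR's quasi-likelihood test at a Benjamini-Hochberg adjusted p below 0.05. The same test called 71.8% of the 14574 genes tested, 36.4% higher and 35.4% lower, so a call alone is common here. The median log2 fold change was 0.36 over the 10 genes and 0.01 over all genes tested. Because the 10 genes were chosen with earlier results of these data known, this contrast is a description only. TPM ranges of the groups did not overlap for any of the 10 genes, as for 73.7% of all genes tested. Separate cultures are not stated for the replicates, so the p-values reflect the spread among these libraries only, and that spread may be technical. Fewer cells of a type and less RNA per cell cannot be told apart in bulk RNA.

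PDGFRB, the receptor through which PDGF-B recruits mural cells, had TPM values of 6.94, 6.70 and 6.37 in H1p16 and 12.5, 12.8 and 12.3 in H1p43. Every H1p43 library was higher, and the log2 fold change of 0.80 ± 0.05 (SE; adjusted p = 5.0e-11 in edgeR) was the largest among the 10 genes. MYL9, a regulatory light chain of myosin II, had 197, 191 and 189 TPM in H1p16 and 349, 336 and 339 in H1p43. It rose in all 3 libraries, by 0.71 ± 0.03 on the log2 scale (edgeR adjusted p = 1.6e-13). TAGLN (transgelin, SM22-alpha), an actin-binding protein used as an early smooth muscle marker, had 213, 213 and 210 TPM in H1p16 and 318, 299.96 and 303 in H1p43. The groups were apart, with a log2 fold change of 0.42 ± 0.03 (edgeR adjusted p = 3.4e-10).

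CALD1, caldesmon, which binds actin and tropomyosin and inhibits the myosin ATPase, had 122.97, 124.19 and 126.65 TPM in H1p16 and 179.27, 184 and 178.59 in H1p43. Its log2 fold change, 0.41 ± 0.02 (edgeR adjusted p = 2.0e-11), lay next to that of TAGLN. The tropomyosins differed from each other. TPM1 had 403, 411 and 393 TPM in H1p16 and 549, 534 and 547 in H1p43, a log2 fold change of 0.30 ± 0.02 (edgeR adjusted p = 1.5e-09). TPM2 had 272, 266 and 251 TPM in H1p16 and 295, 283 and 298 in H1p43. On counts its log2 fold change of 0.05 ± 0.03 did not pass edgeR's test (adjusted p = 0.167). The TPM ranges of TPM2 were apart, and limma on log2(TPM + 1) called it, at 0.15 ± 0.03 (adjusted p = 0.00207). On that TPM scale the median over all genes tested was itself 0.09.

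CNN1, calponin, which like caldesmon restrains actomyosin in smooth muscle, had 26.5, 27.1 and 25.8 TPM in H1p16 and 30.7, 32.4 and 33.6 in H1p43. The shift of 0.17 ± 0.05 on the log2 scale passed edgeR (adjusted p = 0.00567) and not DESeq2 (adjusted p = 0.0556), and was 0.27 with limma on log2(TPM + 1). ACTA2 was barely expressed, with 21 to 23 expected counts in each H1p16 library. Its TPM values were 1.28, 0.84 and 1.10 in H1p16 and 1.81, 1.8 and 1.29 in H1p43. The ranges nearly met, and the log2 fold change of 0.58 ± 0.22 (edgeR adjusted p = 0.0273) was not called by DESeq2 (adjusted p = 0.138) and was 0.34 with limma on log2(TPM + 1). The ACTA2 call also ended without H1p16 replicate 2 (0.47, adjusted p = 0.113), without H1p43 replicate 1 (0.57, adjusted p = 0.0615) and without H1p43 replicate 2 (0.46, adjusted p = 0.114) in edgeR.

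VIM, vimentin, had 124.30, 124.39 and 120.06 TPM in H1p16 and 133.76, 133.10 and 131.88 in H1p43. On counts the log2 fold change was 0.00 ± 0.03 (edgeR adjusted p = 0.919), whereas limma on log2(TPM + 1) gave 0.11 ± 0.02 (adjusted p = 0.00191). All genes tested had a median of 0.09 on that TPM scale, where 6132 genes were higher and 3423 lower, against 5305 and 5155 on counts. THY1, a glycosylphosphatidylinositol-anchored surface protein, went the other way, from 509, 496 and 480 TPM in H1p16 to 391, 389 and 381 in H1p43. It fell by 0.46 ± 0.02 on the log2 scale (edgeR adjusted p = 3.3e-12), with no overlap. The pluripotency markers, among which THY1 was not listed, fell with it: 9 of 10 were lower, 0 higher, with a median of -0.36 (DNMT3B, a DNA methyltransferase, at -1.03 ± 0.02). Their part in the THY1 result was not tested.

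**Figure D2:**
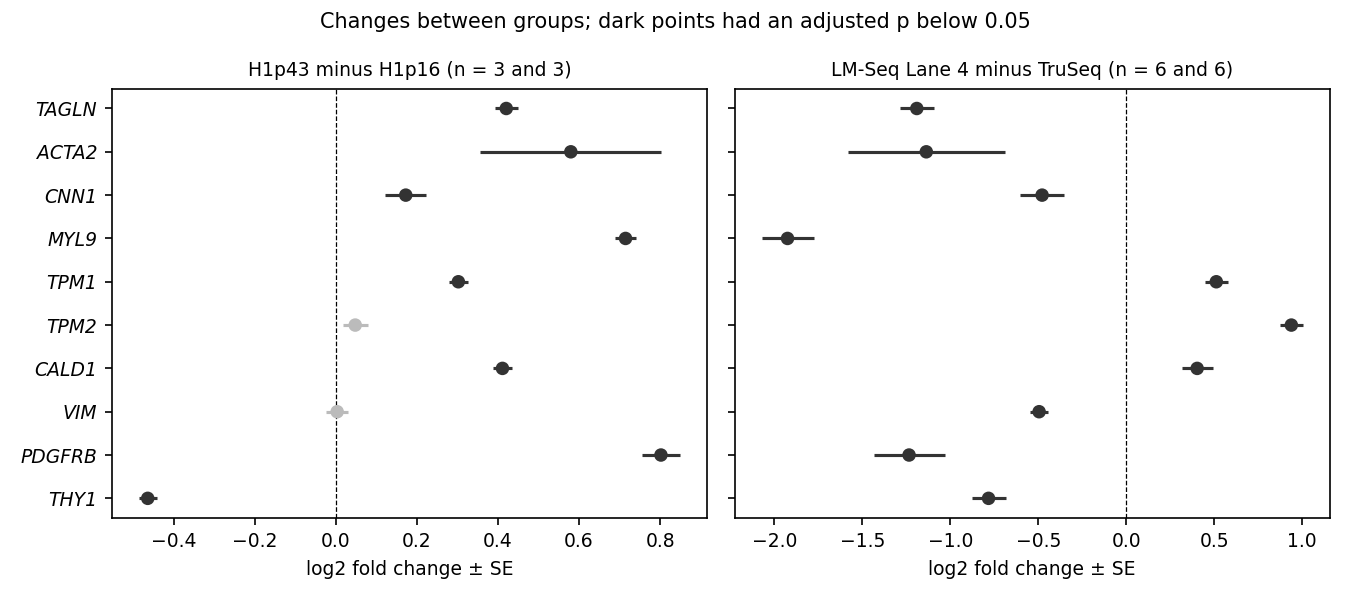
Log2 fold changes ± SE of the 10 genes in edgeR, for H1p43 minus H1p16 (left, 3 libraries each) and LM-Seq Lane 4 minus TruSeq (right, 6 libraries each), with grey points where the adjusted p was 0.05 or more. In the left panel 7 dark points lie above 0 and that of THY1 below, with TPM2 and VIM in grey next to 0, and in the right panel TPM1, TPM2 and CALD1 alone lie above 0.

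Other genes of the same pathways did not move as a block. Of 39 regulators and contractile targets of SRF and its cofactors, 38 were tested: 18 rose and 10 fell in H1p43, with a median log2 fold change of 0.07. LMOD1, leiomodin, an actin filament nucleator of smooth muscle, rose from 0.26 ± 0.05 to 2.18 ± 0.11 TPM (SD, n = 3 each), or by 2.96 ± 0.18 on the log2 scale. ACTG1, a cytoplasmic actin, rose by 0.24 ± 0.02, CYR61, a matricellular protein, by 0.34 ± 0.03, and SRF itself by 0.21 ± 0.03 on the log2 scale. ACTB, the other cytoplasmic actin, did not pass the test (0.01 ± 0.02). Of the 10 smooth muscle markers 9 were tested: RGS5 (0.70 ± 0.03), LMOD1, CSPG4 (1.11 ± 0.07) and SMTN (0.38 ± 0.07) were higher and DES, desmin, lower (-0.67 ± 0.15). RGS5 and CSPG4 are also markers of pericytes. MYH11 and MYOCD, the cofactor myocardin, were not called. The smooth muscle markers summed to 44.4 ± 0.53 TPM in H1p16 and 67.2 ± 0.60 in H1p43 (SD, n = 3 each), and most of that difference lay in RGS5 (20.4 and 35.7 TPM).

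The TGF-beta and PDGF list split, with 8 of 23 genes higher, 10 lower and a median of -0.03. Among the ligands, PDGFB rose by 0.94 ± 0.07 on the log2 scale, while PDGFA changed by -0.57 ± 0.04 and TGFB1 by -0.74 ± 0.07. LTBP4, which binds latent TGF-beta, rose by 0.51 ± 0.04, and PDGFRA, the receptor related to PDGFRB, fell from 1.35 to 0.47 TPM (-1.62 ± 0.14). Of 14 intermediate filament genes other than VIM, 13 were tested, of which 10 were lower and 2 higher with a median of -0.35. The lamin LMNB1 changed by -0.78 ± 0.02, the keratin KRT18 by -0.39 ± 0.02 and the neurofilament NEFM by -0.64 ± 0.04. Of 16 fibroblast and stroma markers 10 were tested, 4 higher and 5 lower, with a median of 0.005. The collagens COL1A2 (0.68 ± 0.03) and COL6A3 (0.76 ± 0.07) were among the former, and PDGFRA and COL6A1 (-0.26 ± 0.04) among the latter. The summed level of the fibroblast and stroma list was 406 ± 7.09 TPM in H1p16 and 456 ± 2.77 in H1p43 (SD, n = 3 each), and most of that difference lay in SPARC (211 and 242 TPM) and COL1A2 (29.3 and 50.7 TPM). Of 10 cardiac and endothelial markers 3 of 7 tested were higher and 2 lower, and of 8 blood and neural crest markers 2 were tested and SOX10 was higher (0.65 ± 0.16). The part of such cells in the changes of the 10 genes was not tested.

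The second comparison set LM-Seq against TruSeq, using Lane 4, the LM-Seq lane nearest to TruSeq in depth. H1p16 and H1p43 were pooled as TruSeq without a covariate, so the SE and SD include the difference between these groups. All 10 genes passed edgeR's quasi-likelihood test, 3 higher in LM-Seq (TPM1, TPM2 and CALD1) and 7 lower. Among all 13827 genes tested, 71.3% were called, 34.3% higher and 36.9% lower. The median log2 fold change was -0.64 over the 10 genes and -0.06 over all genes tested, again a description for genes chosen with earlier results known. TPM ranges of the groups were apart for 7 of the 10 genes and for 53.9% of all genes tested. With counts thinned to a common total 9 of the 10 genes were called, all but ACTA2, and with Lane 1, 2 or 3 in place of Lane 4 the 9 genes tested were called each time. The labels do not say whether the cells were the same, so protocol and any difference between the cells cannot be told apart. The TruSeq values per library are those given above, and the Lane 4 values follow.

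MYL9 showed the largest difference of the 10. It ranged in Lane 4 from 60.6 to 76.9 TPM with a median of 65.02, below every TruSeq library, and averaged 67.6 ± 7.26 TPM against 267 ± 81.6 in TruSeq (SD, n = 6 each). The log2 fold change was -1.92 ± 0.15 (edgeR adjusted p = 8.5e-09), and -1.54 against H1p16 alone or -2.23 against H1p43 alone. TAGLN ranged from 91.9 to 124.78 TPM with a median of 105.7, also below every TruSeq library (log2 fold change -1.19 ± 0.10, edgeR adjusted p = 2.0e-08). Against H1p16 alone its log2 fold change was -0.98, and against H1p43 alone -1.38. PDGFRB ranged from 2.24 to 4.77 TPM with a median of 4.14. Its log2 fold change of -1.23 ± 0.20 (edgeR adjusted p = 4.7e-05) became -0.79 against H1p16 alone and -1.57 against H1p43 alone. THY1 ranged from 234 to 269 TPM with a median of 252, and fell by 0.78 ± 0.10 on the log2 scale (edgeR adjusted p = 2.3e-06). Its log2 fold change was -1.01 against H1p16 alone and -0.52 against H1p43 alone. VIM ranged from 82.97 to 100.03 TPM with a median of 86.8, and fell by 0.50 ± 0.05 on the log2 scale (edgeR adjusted p = 1.8e-07). PDGFRB, THY1 and VIM were lower in each Lane 4 library than in any TruSeq library.

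TPM2 was the gene of the set with the largest increase in LM-Seq. Its Lane 4 values ran from 480 to 585 TPM with a median of 544, above every TruSeq library, where the mean was 278 ± 17.9 TPM (SD, n = 6). The log2 fold change was 0.94 ± 0.06 (edgeR adjusted p = 2.3e-09). TPM1 ran from 594 to 685 TPM with a median of 626, again above every TruSeq library, and rose by 0.51 ± 0.07 on the log2 scale (edgeR adjusted p = 3.5e-06). Its rise was 0.66 against H1p16 alone and 0.38 against H1p43 alone. CALD1 ran from 175 to 216 TPM with a median of 196. It overlapped the H1p43 libraries, and its log2 fold change of 0.40 ± 0.09 (edgeR adjusted p = 7.3e-04) was 0.61 against H1p16 alone and 0.22 against H1p43 alone. The other tropomyosin genes stood higher in LM-Seq as well, TPM3 by 0.87 ± 0.05 and TPM4 by 0.94 ± 0.04 on the log2 scale.

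CNN1 ran from 15.04 to 28.2 TPM in Lane 4 with a median of 20.2, overlapping H1p16, and differed by -0.48 ± 0.12 (edgeR adjusted p = 0.00266). ACTA2 had 3 to 18 expected counts per Lane 4 library. Its TPM ran from 0.26 to 1.56 with a median of 0.36, overlapping TruSeq, and the log2 fold change was -1.14 ± 0.45 (edgeR adjusted p = 0.0325). Without the highest Lane 4 library, Lane4_38869, it was -1.83. The ACTA2 call ended against H1p16 alone (-0.82, adjusted p = 0.255), with counts thinned to a common total (-1.07, adjusted p = 0.0675), and on leaving out either H1p43 replicate 1 or 2, or any of Lane4_38870, Lane4_38871, Lane4_38873 and Lane4_38874 (adjusted p from 0.0598 to 0.0703 in edgeR).

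The companion lists again split. Of the 38 SRF-related genes tested, 12 were higher and 20 lower in LM-Seq, with a median of -0.19. TMSB10, a thymosin that binds actin monomers, went from 2635 to 527 TPM (-2.28 ± 0.06) and ZYX, zyxin of focal adhesions, from 305 to 88.2 TPM (-1.76 ± 0.08). MYL6, an essential myosin light chain, went the other way, from 1567 to 3601 TPM (1.23 ± 0.06). Smooth muscle markers were higher for 1 (SYNPO2) and lower for 5 of 9 tested, with RGS5 at -1.02 ± 0.14 and CSPG4 at -1.58 ± 0.28. Intermediate filament genes were mostly higher (9 of 13, with 2 lower), LMNB1 at 1.55 ± 0.15 and KRT18 at -0.98 ± 0.08. Of the TGF-beta and PDGF genes 11 of 23 were higher and 3 lower, the receptor TGFBR1 at 1.56 ± 0.06. Fibroblast and stroma markers were higher for 5 and lower for 1 of 10 tested, COL1A1 at 0.85 ± 0.05, and pluripotency markers were higher for 8 and lower for 2 of 10.

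Between LM-Seq lanes, the same library numbers were compared at increasing depth. None of the 9 genes tested was called in Lane 2, 3 or 4 against Lane 1 by edgeR's quasi-likelihood test. The test called 0 of 10120 genes in Lane 2, 0 of 10871 in Lane 3 and 2 of 12419 (0.0161%) in Lane 4. At an unadjusted p below 0.05 it gave 182 genes in Lane 2, 216 in Lane 3 and 1.25% of the 12419 in Lane 4. DESeq2 and limma on log2(TPM + 1) likewise called 0, 0 and 2 genes. Same-numbered libraries deviated together, and with the number as a block 26, 44 and 13 genes were called, still with none of the 9. The largest shift in the set was that of TAGLN in Lane 4, -0.23 ± 0.09 (edgeR adjusted p = 1), and the lowest unadjusted p of that set was its 0.0172. ACTA2 did not pass the filter on low counts. It was listed at 0 in 64 of 95 libraries of Lane 1, 17 of 48 of Lane 2, 6 of 24 of Lane 3 and 0 of 6 of Lane 4, and no Lane 1 library held more than 4 expected counts of it.

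Some of the 9 genes differed between LM-Seq libraries in a way that came back in another lane. Over the 48 numbers that Lanes 1 and 2 share, log2 CPM of the same number was correlated between lanes, and p-values of 100000 permutations were adjusted over all 9208 genes tested. The correlation was called for 71.5% of these genes, with a median Pearson r of 0.399. It was called for 7 of the 9: TPM2 (r = 0.937, rho = 0.893), CALD1 (0.840, 0.696), TPM1 (0.838, 0.787), THY1 (0.564, 0.562), VIM (0.391, 0.320), CNN1 (0.376, 0.366) and PDGFRB (0.321, 0.231). The adjusted permutation p was 6.9e-05 for TPM2, CALD1 and TPM1, from the smallest p these permutations can give, 1.0e-05. Without the 2 numbers farthest from the median, r was 0.921 for TPM2, 0.70 for CALD1 and 0.779 for TPM1. The calls of VIM (0.307) and PDGFRB (0.208) ended there. With Lane 3 in place of Lane 2 (24 numbers) those of PDGFRB (0.443, adjusted permutation p = 0.0574) and THY1 (0.444, adjusted permutation p = 0.0582) ended. Calls over all genes fell too, from 6580 to 5285 of 9208 without the 2 farthest numbers, and to 4612 of 9213 with Lane 3. MYL9 (r = 0.230) and TAGLN (r = 0.208) were not called, at adjusted permutation p of 0.139 and 0.177. By rank the correlation of PDGFRB was not called (adjusted permutation p = 0.142). Mean counts in Lane 1 were 40.7 for MYL9, 67.8 for TAGLN, 336 for TPM2, 16.7 for CNN1 and 11.8 for PDGFRB. The part of depth in these calls was not tested.

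**Figure D3:**
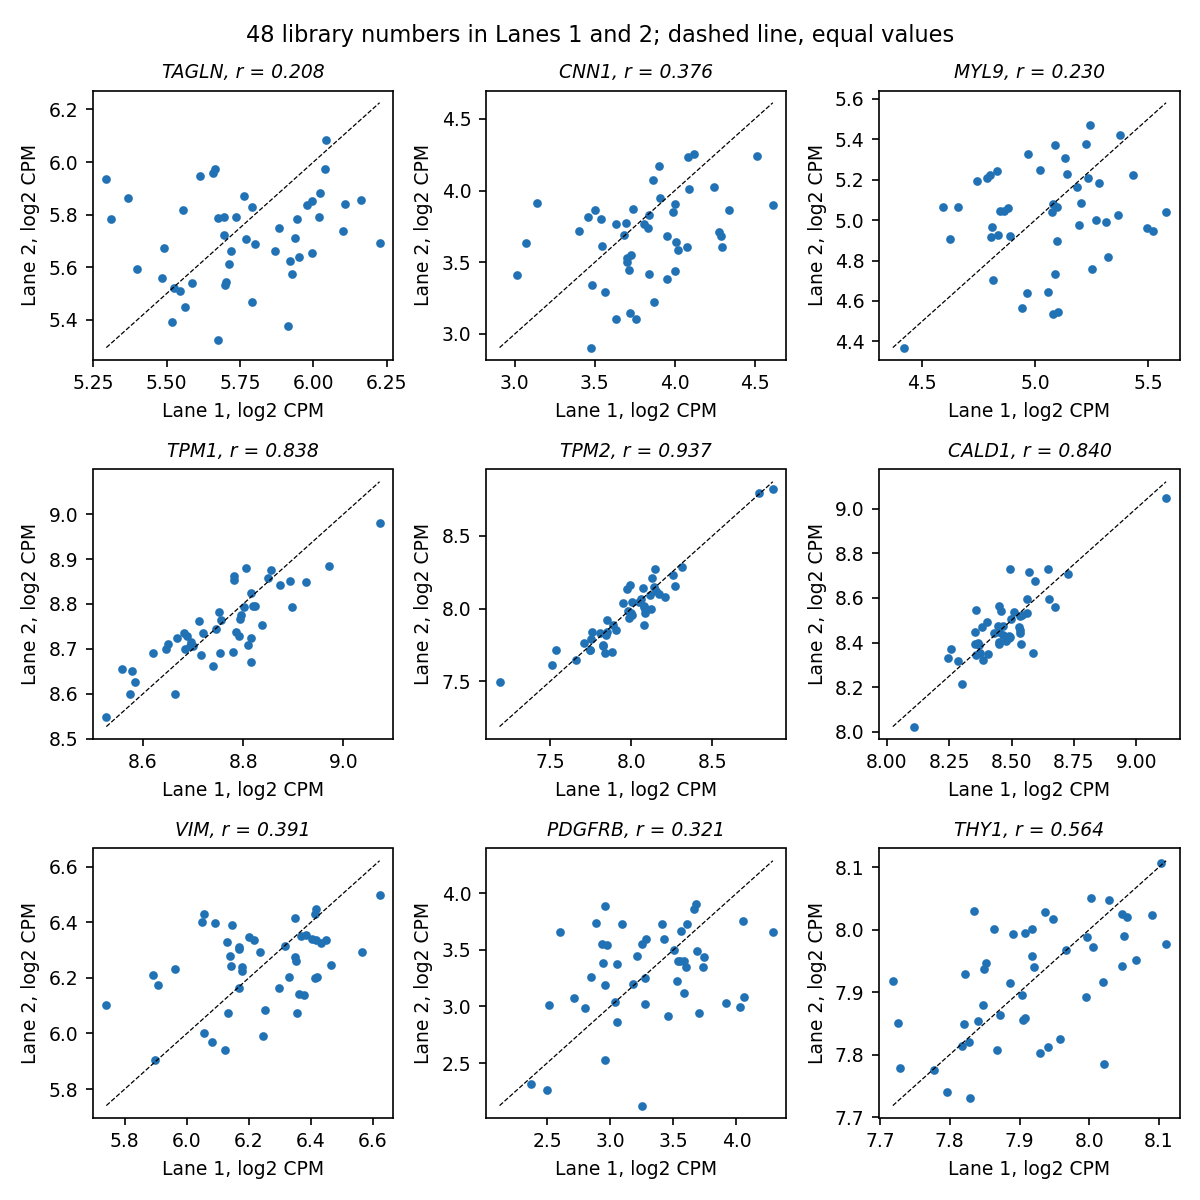
Log2 CPM of 9 genes for the 48 library numbers that Lanes 1 and 2 share, Lane 1 on the x axis and Lane 2 on the y axis, with a dashed line at equal values. TPM2 follows the line over more than 1 log2 unit (r = 0.937), with 2 numbers far above the rest, while TAGLN (r = 0.208) and MYL9 (r = 0.230) scatter around it.

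Lanes 1 to 3 share 24 numbers, and each title gives the lane and the number. Among these 24, the highest pair and the lowest value of TPM2 fell on the same numbers in each lane. So did the highest values of TPM1 and CALD1. Other extremes did not come back in this way. The lowest values of TPM1, CALD1 and CNN1, and the highest of CNN1 and THY1, fell on a different number in each lane. For the highest and lowest values of VIM and the lowest of THY1, some lanes shared a number and another did not. Over all 95 libraries of Lane 1, TPM2 ran wider, from 303 to 980 TPM with a median of 542. Among the 24, TPM2 was highest in Lane1_38859 and Lane1_38861 (917 and 889 TPM), in Lane2_38859 and Lane2_38861 (882 and 878 TPM), and in Lane3_38861 and Lane3_38859 (934 and 895 TPM). It was lowest in Lane1_38873, Lane2_38873 and Lane3_38873, at 472, 479 and 470 TPM. Lane1_38859, Lane2_38859 and Lane3_38859 also had the highest TPM1 (778, 707 and 730 TPM, with medians of 656, 632 and 637) and the highest CALD1 (281, 264 and 287 TPM, with medians of 194, 197 and 197) of the 24. In Lane 1 TPM1 ran from 529 to 778 TPM with a median of 622, CALD1 from 140 to 281 with a median of 193, and THY1 from 200 to 290 with a median of 247. Whether a shared number means 1 preparation put on several lanes is not stated in the labels.

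Over the 95 libraries of Lane 1, 3 of the 36 pairs among the 9 genes varied together, and all 3 lay among TPM1, TPM2 and CALD1. Pearson r was 0.693 for TPM2 with CALD1 (rho = 0.559), 0.649 for TPM1 with TPM2 (rho = 0.585) and 0.472 for TPM1 with CALD1 (rho = 0.292). Permutation p-values were adjusted over 83547 pairs of one of these genes with any gene, of which 5038 were called, and these 3 had an adjusted permutation p of 5.0e-04. The rank correlation of TPM1 with CALD1 was not called (adjusted permutation p = 0.0794). Without the 2 libraries farthest from the median of the first gene, r was 0.609, 0.577 and 0.335. Without Lane1_38859, left out after its values had been seen, r was 0.659, 0.618 and 0.404, and all 3 pairs were called. Over only the 48 numbers that Lane 2 also holds, TPM1 with CALD1 was not called (r = 0.424, adjusted permutation p = 0.102). Taking the first gene from one lane and the second from the other over the 48 shared numbers, so that counting error is not shared, r was 0.623, 0.622 and 0.446, and all 3 were called.

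A correlation with other genes was itself common for these 3 genes. Over Lane 1, TPM2 was called with 18.9% of the 9287 other genes tested, CALD1 with 16.1% and TPM1 with 15.4%. For the other 6 genes the share was 0.345% (TAGLN), 0.431% (PDGFRB), 0.441% (VIM), 0.721% (THY1), 0.818% (CNN1) and 1.12% (MYL9). The 5th and 95th percentiles of r for TPM2 were -0.355 and 0.481, so its r with CALD1 and TPM1 lay above the latter. CALD1 and TPM2 correlated with the number of genes detected in a library at r = -0.414 and r = -0.297, and MYL9 at r = 0.280, given as descriptions. The part of library complexity in these pairs was not tested.

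The remaining 33 pairs were not called. The largest were CNN1 with CALD1 (r = 0.295, adjusted permutation p = 0.0633), TAGLN with MYL9 (0.258, 0.131) and CNN1 with TPM2 (0.251, 0.148). Between lanes these were not called either, at 0.302 (adjusted permutation p = 0.117), 0.190 (0.365) and 0.343 (0.0602), and TAGLN with MYL9 stood at -0.058 within Lane 2. Without the 2 libraries farthest from the median of CNN1, its pairs with CALD1 (0.327, adjusted permutation p = 0.0336) and TPM2 (0.369, 0.011) were called. MYL9 and CALD1 had the most negative value, -0.249 (adjusted permutation p = 0.146), which was called on log2(TPM + 1) (-0.296, adjusted permutation p = 0.0485). These were the only calls, under the settings run, for any pair of TAGLN, CNN1 or MYL9, whose proteins act on the same filaments, with TPM1, TPM2 or CALD1. CNN1 had 5 to 28 and MYL9 22 to 63 expected counts per Lane 1 library.

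**Figure D4:**
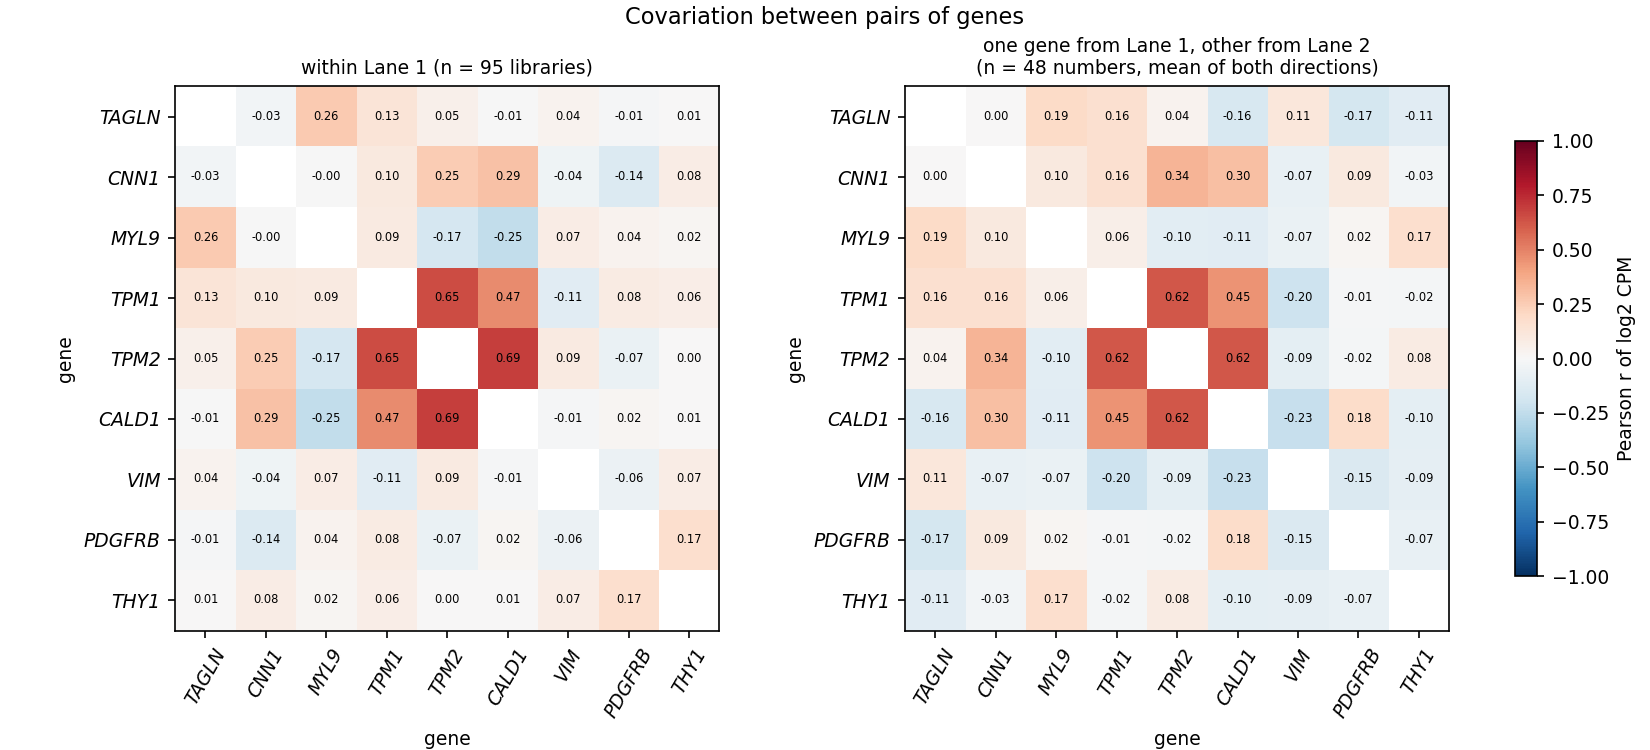
Pearson r of log2 CPM between pairs of 9 genes, within the 95 libraries of Lane 1 (left) and with the first gene from one of Lanes 1 and 2 and the second from the other (right, 48 numbers, mean of both directions). The block of TPM1, TPM2 and CALD1 stands out in both panels, at 0.472 to 0.693 on the left and 0.446 to 0.623 on the right.

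The genes most like each member over Lane 1 were sought among 4709 other genes with a mean of at least 50 counts. TPM2 was closest to NCL, nucleolin of the nucleolus (r = 0.889), ANP32B, a histone chaperone, and HNRNPH3, an RNA-binding protein (0.871 each). CALD1 was closest to EIF3A, a translation initiation factor subunit (0.792), NCL (0.785) and SET, a phosphatase inhibitor and histone chaperone (0.783). TPM1 was closest to UBXN1 (0.709), NGFRAP1 (0.706) and CALR, the calcium-binding chaperone calreticulin (0.705). Across Lanes 1 and 2 the r values of these 9 pairings were 0.628 to 0.866, the highest being that of TPM2 with NCL. The other 6 genes had no neighbour above 0.435: MYL9 was closest to TKT, transketolase (0.418), THY1 to CKB, brain creatine kinase (0.435), CNN1 to EHMT2, a histone methyltransferase (0.385), PDGFRB to WDR35 (0.383), VIM to PCGF3 (0.376) and TAGLN to CAMKK2, a calmodulin-dependent kinase kinase (0.343). For TAGLN and PDGFRB these fell to 0.066 and 0.056 between lanes.

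The genes nearest to TPM2, CALD1 and TPM1 also differed between protocols. NCL was higher in Lane 4 than in TruSeq by 2.46 ± 0.105 on the log2 scale, EIF3A by 1.96 ± 0.07, HNRNPH3 by 1.805 ± 0.071 and UBXN1 by 1.28 ± 0.065. TKT and CKB, nearest to MYL9 and THY1, were lower, at -0.89 ± 0.04 and -0.78 ± 0.07, and so was EHMT2, nearest to CNN1 (-0.45 ± 0.06). PDGFRB, VIM and TAGLN were lower in Lane 4, but their nearest genes were higher: WDR35 (0.80 ± 0.05), PCGF3 (0.34 ± 0.06) and CAMKK2 (0.30 ± 0.07). Of the 100 genes with the highest r to CALD1 in Lane 1, 100 were higher in Lane 4 than in TruSeq, with a median of 1.16, and so were 97 for TPM2 and 91 for TPM1. Of the 100 genes with the highest r to MYL9, 10 were higher, with a median of -0.73, and so were 15 for THY1, 32 for TAGLN, 43 for VIM and 48 for PDGFRB. CNN1, itself lower in Lane 4, had 73 such genes higher. Of all 9279 genes compared 57.5% were higher, with a median of 0.15. Among the 100 genes with the lowest r, 62 were higher for CALD1, 77 for TPM2 and 85 for TPM1, against 92 for MYL9, 90 for THY1, 72 for TAGLN and for CNN1, 69 for PDGFRB and 68 for VIM, so for every one of these 9 genes this end also lay above the share of all genes. This is a description across genes, which are not independent replicates, and the Lane 4 numbers are among those of Lane 1.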

How the data were processed

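RNA-seq libraries of H1 cells were processed, per the submitters' processing notes, with CASAVA 1.8.2, Bowtie 0.12.8 and RSEM 1.2.3 on hg19. The authors deposited RSEM expected counts and TPM values for 19084 genes. RSEM divides reads shared by several genes, so values of close paralogs such as the tropomyosins are uncertain: expected counts were not whole (tolerance 0.005) in 121 of 179 libraries for TPM1, 86 for TPM2 and 90 for CALD1, against 4 for PDGFRB. Overlapping and antisense genes are likewise uncertain, since use of strand in counting is not stated.

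Expected counts were rounded and entered into edgeR's quasi-likelihood test (edgeR 4.0.16, R 4.3.3; filterByExpr, TMM, no covariates, Benjamini-Hochberg adjusted p below 0.05 over all genes tested). The SE was derived from the fold change and its F statistic. H1p43 was compared with H1p16, Lane 4 with TruSeq (6 libraries each), and each of the deeper LM-Seq lanes with Lane 1, over the numbers both hold. Log2 CPM (TMM, prior count 2) of genes with a mean of at least 10 counts in Lane 1 entered the correlations, with 100000 permutations. No 2 libraries of the same group held identical rounded counts, and the lowest chi-square per degree of freedom within a group was 1.29. Pairs from different groups were not compared for identity. The alternatives comprised DESeq2 1.42.0, RLE scaling, testing without the filter, limma 3.58.1 on log2(TPM + 1) or log2(TPM + 0.1) of genes averaging 1 TPM or more, thinned counts, left-out libraries, other lanes and the library number as a block. Deviations from the lane mean correlated between same-numbered libraries of Lane 1 and Lane 2 (0.187 to 0.660), Lane 3 (0.233 to 0.614) and Lane 4 (0.365 to 0.439), so blocked counts are given. The scripts were tested on simulated data.

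The 10 genes and 8 companion lists were chosen with earlier results of these data known. Named were all 10 genes, up to 3 called genes per list with the lowest adjusted p, defining markers at 0, and for each gene the nearest genes over Lane 1. SRF, ACTB, SMTN, DES, MYH11, MYOCD, TPM3, TPM4, TGFB1 and PDGFRA were named after their values were seen.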

Additional observations from a re-analysis of the deposited data

Results flagged for a closer look

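ACTA2 in Lane 4 had 1 library far from the other 5. Lane4_38869 stood at 1.56 TPM, with the next at 0.69 and the others from 0.26 to 0.44 TPM. It had 18 expected counts of ACTA2, and the lowest libraries had 3. Its gap was 0.669 of the group's range. Chance alone gives a gap past the 95% limit in about 1 in 20 groups, and 10 genes were examined, of which VIM (0.609) and PDGFRB (0.605) came next, below the limit.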

How the results depend on the processing

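No result changed direction among those called. For H1p43 with H1p16 and Lane 4 with TruSeq, the numbers of genes called stayed within 1.5 times under every alternative run. Leaving out 1 replicate gave 9828 to 10470 genes and 7 to 8 of the 10 described genes for the former, and 9493 to 9795 genes and 9 to 10 of the 10 for the latter. Same-numbered TruSeq libraries did not deviate together (r of 0.003 to 0.047), and the replicate block called 10463 genes against 10460. DESeq2 called 6 of the 10 genes in H1p43 and limma on log2(TPM + 1) all 10. Counts of genes that moved by more than this were those between lanes and in the covariation. Lane 2 against Lane 1 gave 1 gene without the filter and 26 with the replicate block, against 0. Lane 3 against Lane 1 gave 44 with the block and 60 with all libraries of both lanes, against 0. Lane 4 against Lane 1 gave 13 with the block, 0 with thinned counts and 0 with all libraries, against 2. The cause was not tested. None of these called any of the 9 genes tested between lanes. In Lane 1, 1744 gene pairs were called over numbers that Lane 2 also holds, 2993 over the others and 3155 in Lane 2 itself, against 5038, with fewer libraries in each. Without the 2 libraries farthest from the median 5 member pairs were called against 3, adding CNN1 with TPM2 (r = 0.37) and with CALD1 (r = 0.33). Depth limits ACTA2, with 3 to 18 expected counts per Lane 4 library and 0 to 4 in Lane 1.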
